A study of Mus musculus with 21 samples.

Results

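The genes described here are 9 of 21883 protein-coding genes on the placed chromosomes: Yap1, Wwtr1, Tead1, Tead2, Tead3, Tead4, Vgll2, Vgll3 and Vgll4. They encode YAP, TAZ, the TEAD proteins and 3 Vestigial-like cofactors, and were taken by name. Vgll1, another Vestigial-like gene, is not among them and is counted with the other Hippo pathway genes. A peak was assigned to a gene when it lay within 1 kb of the span of that gene in GRCm38, the mouse assembly that genome browsers call mm10. The peaks come from CUT&RUN, in which an antibody guides a nuclease to a bound protein or histone mark and the released DNA is sequenced. All cells were C2C12, an established mouse myoblast line, and the labels give no genetic change in them. Cycling cells were kept subconfluent in 20% FBS and frozen unfixed in DMSO, with 3 PSME3 and 3 H3K4me3 libraries. Day 2 cells were confluent cells held for 48 hours in 2% horse serum. They were assayed either fresh or frozen and either native or after 0.1% formaldehyde, with 1 PSME3 and 1 H3K4me3 library in each of these 4 preparations. The fresh native, fresh crosslinked and frozen crosslinked preparations have no cycling counterpart. Only the frozen native preparation was handled like the cycling cells.

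YAP (Yap1) and TAZ (Wwtr1) are transcriptional coactivators that the Hippo kinase cascade keeps out of the nucleus. They do not bind DNA themselves and reach their target genes through the TEAD transcription factors, which recognise the M-CAT element first described in muscle genes. Vestigial-like proteins bind the same surface of TEAD, and VGLL4 is known as a competitor of YAP. In muscle precursors YAP and TAZ are known for promoting proliferation. PSME3 is a proteasome activator subunit of the nucleus, and H3K4me3 is a histone mark of active promoters.

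The lists stood apart in size. The cycling PSME3 lists held 776 to 3070 peaks, with replicate 3 the largest, and the day 2 PSME3 lists held 18 to 186. H3K4me3 replicate 2 of cycling cells held 40999 peaks with a median width of 662 bp, while the other 6 H3K4me3 lists held 14372 to 20245 peaks. The deposited lists contain no read counts, so the depth of each library is unknown. In a bulk assay such as this, fewer cells carrying a mark and less of the mark in each cell cannot be told apart. The cells matched their label: all 5 myoblast markers examined (Myod1, Myf5, Des, Cdh15 and Chrna1) had H3K4me3 in all 7 lists. Myog, Myh3 and Ckm, which are switched on during muscle differentiation, had it in no cycling list and in all 4 day 2 lists. Alb, Cdh5, Ptprc and Epcam, markers of other cell types, had it in none, Gfap had it in 1 cycling list, and Sox10 in 1 list of each stage.

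Promoter sequences are shown for 5 of the genes because their positions relative to PSME3 differ. The Wwtr1 promoter lay wholly under a PSME3 peak, the Vgll3 promoter in part, and the Tead3 promoter in part under a peak of 1 replicate. PSME3 began downstream of the window shown for Yap1, and no PSME3 peak was listed at Vgll2. Each sequence is the 250 bases before an annotated transcription start, 5′ to 3′ on the strand of the gene, from RefSeq annotation of GRCm38.p6. Capitals mark the M-CAT core that TEAD proteins recognise, searched as CATTCC on both strands, so that GGAATG is the same core on the opposite strand.
Wwtr1 (chr3:57575911-57576160, minus strand): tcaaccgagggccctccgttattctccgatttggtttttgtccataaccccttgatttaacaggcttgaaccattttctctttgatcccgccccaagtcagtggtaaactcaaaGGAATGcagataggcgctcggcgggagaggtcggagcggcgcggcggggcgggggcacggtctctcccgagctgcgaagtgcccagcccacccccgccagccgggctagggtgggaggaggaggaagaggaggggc
Vgll3 (chr16:65814939-65815188, plus strand): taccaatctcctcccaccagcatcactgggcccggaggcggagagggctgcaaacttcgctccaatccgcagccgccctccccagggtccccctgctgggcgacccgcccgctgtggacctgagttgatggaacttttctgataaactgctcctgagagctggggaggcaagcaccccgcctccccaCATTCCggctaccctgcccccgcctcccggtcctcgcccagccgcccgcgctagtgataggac
Tead3 (chr17:28350806-28351055, minus strand): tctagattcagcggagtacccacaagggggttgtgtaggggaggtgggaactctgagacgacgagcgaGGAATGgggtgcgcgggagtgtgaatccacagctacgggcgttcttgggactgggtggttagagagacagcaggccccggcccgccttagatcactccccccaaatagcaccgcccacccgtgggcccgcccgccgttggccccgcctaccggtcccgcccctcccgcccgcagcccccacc
Yap1 (chr9:8004597-8004846, minus strand): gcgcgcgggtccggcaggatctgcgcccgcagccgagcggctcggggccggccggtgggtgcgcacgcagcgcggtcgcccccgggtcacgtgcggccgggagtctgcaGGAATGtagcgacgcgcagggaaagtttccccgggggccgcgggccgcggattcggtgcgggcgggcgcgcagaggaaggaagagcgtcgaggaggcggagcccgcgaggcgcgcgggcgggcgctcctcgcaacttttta
Vgll2 (chr10:52022252-52022501, plus strand): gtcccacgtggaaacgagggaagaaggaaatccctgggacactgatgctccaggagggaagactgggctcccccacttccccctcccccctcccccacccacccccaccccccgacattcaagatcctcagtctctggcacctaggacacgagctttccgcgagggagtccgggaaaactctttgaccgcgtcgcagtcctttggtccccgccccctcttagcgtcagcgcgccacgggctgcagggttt

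The RefSeq table held 10 promoter entries for 7 of the 9 genes, with none for Tead1 and Tead4. An M-CAT core was present in the 250 bases of Yap1, Wwtr1, Vgll3 and Vgll4 and in 2 of the 3 entries of Tead3. It was not found in those of Tead2, Vgll2 and the third Tead3 entry. Of all 32851 promoters in the table, 12.6% held the core in the same window. At Wwtr1 it began 136 bases before the first of 2 annotated starts, and all 6 of its bases lay under the pooled PSME3 peak. At Vgll3 it began 63 bases before the start, at the edge of the pooled peak, which covered 3 of its 6 bases. At Yap1 it began 141 bases before the start and lay 210 bp outside the peak. These are matches of letters, and binding of TEAD was not measured.

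In cycling cells, pooled PSME3 peaks were listed at both coactivators, at 3 of the 4 Tead genes and at 2 of the 3 Vestigial-like genes described here. In the pooled list, which is the authors' own peak call on the 3 replicates together, 7 of the 9 genes had a PSME3 peak, against 21.9% of all 21883 protein-coding genes. All 9 genes also carried H3K4me3 in all 7 lists, which held for 53.2% of protein-coding genes. Among the genes with H3K4me3 in all 7 lists, 39.5% had a pooled PSME3 peak. The pooled list has no replicates, so the count of 7 of 9 has no error estimate.

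Single replicates gave much thinner support. Replicate 1 listed PSME3 at 1 of the 9 genes, Vgll4, where 4.57% of all genes had a peak. Replicate 2 listed it at 1, Vgll3, where 3.60% of all genes had one. Replicate 3 listed it at 5, Yap1, Tead1, Tead3, Tead4 and Vgll3, where 13.4% of all genes had one. Vgll3 was therefore the only one of these genes with PSME3 in more than 1 replicate, and 4 of the 9 rested on replicate 3 among the replicates. When a pooled peak had to overlap a peak of replicate 1 or 2, without replicate 3, 2 genes remained, Vgll3 and Vgll4.

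**Figure D1:**
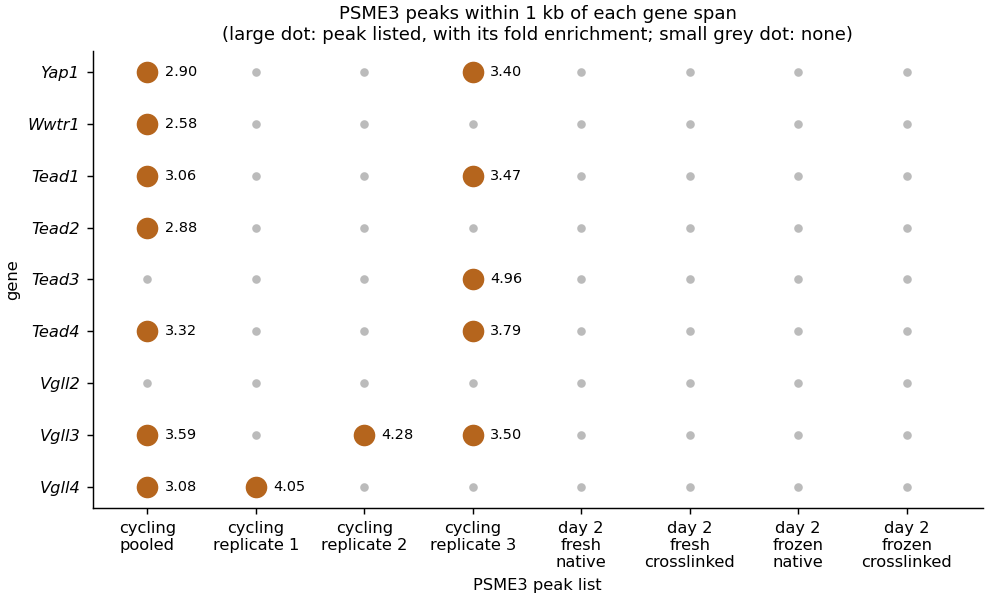
PSME3 peaks within 1 kb of the 9 genes (rows) in the pooled cycling list, the 3 cycling replicates and the 4 day 2 preparations (columns), each large dot with the fold enrichment of the peak. Vgll3 had a peak in 2 replicates, replicate 3 listed 5 genes, and no day 2 list had any.

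Vgll3, a TEAD cofactor of the Vestigial-like family, carried the PSME3 peak with the highest fold enrichment and the largest width of these genes in the pooled list. It spanned chr16:65815129-65816394, 1266 bp across the start of the gene, with a fold enrichment of 3.59 and a q-value of 5.5e-06. That fold enrichment was at least as high as that of 90.6% of the 5812 pooled PSME3 peaks. The peaks of the single replicates were narrower, 276 bp with a fold enrichment of 4.28 in replicate 2 and 282 bp with 3.50 in replicate 3. Both lay within the pooled peak, near its left end. In replicate 3 the peaks of Tead3 and Tead4 had a higher fold enrichment than that of Vgll3, and those of Yap1 and Tead4 were wider. Of all pooled PSME3 peaks, 45.8% overlapped no replicate list, 39.8% overlapped 1, 10.5% overlapped 2 and 3.92% overlapped all 3.

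At the coactivators the PSME3 peaks were weaker. The Yap1 peak (chr9:8003839-8004522, 684 bp) had a fold enrichment of 2.90 and a q-value of 0.0233, and its centre lay 416 bp inside the gene from the annotated start. It was also listed in replicate 3, with 976 bp and a fold enrichment of 3.40. The Wwtr1 peak (chr3:57575846-57576280, 435 bp) was centred at -153 bp from the start, upstream of the gene, over the promoter printed above. Its fold enrichment of 2.58 was among the lowest of the pooled list, with only 7.2% of peaks at or below it, while its q-value of 0.00842 was near the middle of the list. No single replicate listed it.

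Among the Tead genes, which encode the DNA-binding partners, Tead4 had the best supported pooled peak. TEAD4 is the family member known for a role in myoblast differentiation. The Tead4 peak (chr6:128300284-128300842, 559 bp, fold enrichment 3.32, q-value 0.000294) lay across the end of the gene span and recurred in replicate 3 at 550 bp. The Tead1 peak (chr7:112679804-112680198, 395 bp) lay 448 bp inside the span from its first base, with a fold enrichment of 3.06 and a q-value of 0.0101, and recurred in replicate 3 at 259 bp. The Tead2 peak (chr7:45215874-45216115, 242 bp) was centred 202 bp inside the gene from its start, with a fold enrichment of 2.88 and a q-value of 0.044, and no replicate listed it. Tead4 thus had the lowest q-value of these 3 genes and Tead2 the highest.

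Tead3 differed from the other Tead genes, because PSME3 was listed only in replicate 3 and not in the pooled list. That peak (chr17:28350892-28351122, 231 bp) was strong for its list, with a fold enrichment of 4.96 that placed it at or above 96.2% of the peaks, and a q-value of 2.03e-05. It was centred at -202 bp from the nearest annotated Tead3 start, upstream of the gene, and covered the M-CAT core printed above. The neighbouring gene Tulp1 also lies within 1 kb of it, so the peak cannot be assigned to Tead3 alone.

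Vgll4, the cofactor known to compete with YAP, had its PSME3 peak far from either end of the gene. The pooled peak (chr6:114889013-114889223, 211 bp, fold enrichment 3.08, q-value 0.00597) lay 80085 bp inside the gene from the annotated start and 28392 bp from the nearer boundary of the span. It recurred in replicate 1 at 177 bp with a q-value of 0.0906. The other 6 pooled peaks were no further than 1 kb from a boundary of their gene. Over all 5443 pairs of a pooled PSME3 peak and a protein-coding gene within 1 kb of it, 69.6% were at a boundary in this sense and 30.4% were not. Vgll2, known for its expression in skeletal muscle, had no PSME3 peak in any list.

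All 7 pooled PSME3 peaks at these genes overlapped a pooled H3K4me3 peak, as did 93.6% of all pooled PSME3 peaks, by at least 1 bp. The share of all peaks lying entirely inside one was not computed. Each of the 7 lay entirely inside its H3K4me3 peak. They occupied small and differently placed stretches of it. At Yap1, Tead1 and Tead2 the 2 centres were 320, 361 and 182 bp apart, within H3K4me3 peaks of 3635, 4413 and 1899 bp. At Wwtr1, Tead4 and Vgll3 they were 1830, 1942 and 1891 bp apart, within H3K4me3 peaks of 6215, 6070 and 6938 bp. In these 3 the PSME3 peak lay toward the edge of the mark that reaches outside the gene span. At Vgll4 the centres were 2651 bp apart, with PSME3 420 bp from the left edge of the mark.

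**Figure D2:**
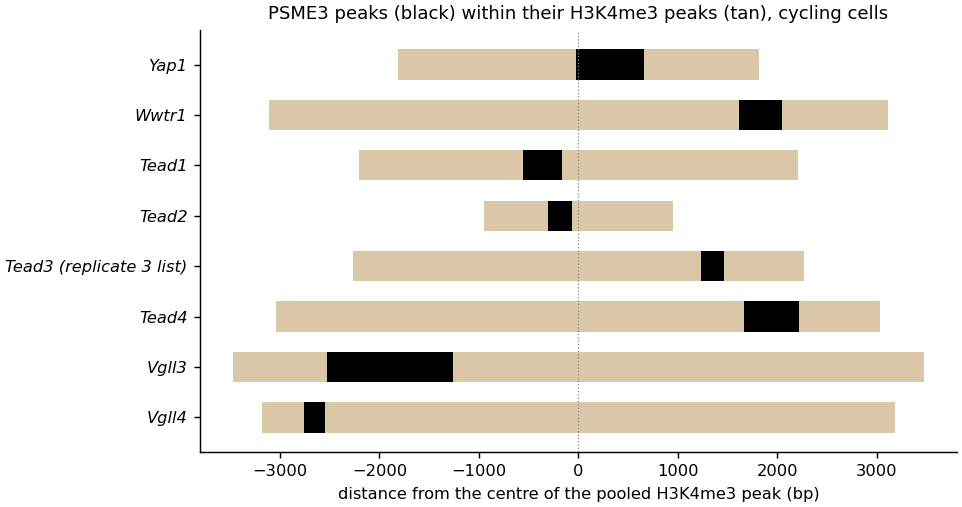
Position of each PSME3 peak (black) within the pooled cycling H3K4me3 peak that holds it (tan), as the distance in bp from the centre of the H3K4me3 peak. The pooled PSME3 peak is drawn, except for Tead3, where only replicate 3 listed one; Yap1, Tead1 and Tead2 lie near the centre and the others toward an edge.

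PSME3 was listed at fewer of these genes than H3K4me3. The PSME3 libraries of replicates 1, 2 and 3 listed 1, 1 and 5 of the 9 genes, a mean of 2.33 ± 2.31 (SD, n = 3), and each H3K4me3 library listed all 9. The difference of 6.67 genes had p = 0.1 in a two-sided exact permutation test of 3 against 3 libraries, the smallest p that this design allows. The H3K4me3 lists are also longer. When each H3K4me3 list was reduced to its top peaks by q-value, to the length of the PSME3 list of the same replicate, H3K4me3 was listed at 2, 0 and 6 of the 9 genes and the difference was 0.33 (p = 1.0, exact permutation test). Of all protein-coding genes, 6.89%, 4.93% and 17.8% had a peak in these shortened lists.

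At day 2, no PSME3 peak was listed at any of the 9 genes in any of the 4 preparations. In all 4 lists together, 1.00% of protein-coding genes had one, so 0 of 9 is near that share. At 6 of the 7 pooled PSME3 sites, H3K4me3 was listed in all 4 day 2 preparations, as it was for 69.1% of all pooled PSME3 peaks. The internal Vgll4 site was the exception, with H3K4me3 in all 3 cycling lists and in none of the day 2 lists at that position. The cycling peaks over it were weak, with fold enrichments of 2.69 to 3.71. In frozen crosslinked cells a 152 bp H3K4me3 peak ended at 114888898, just short of the PSME3 site, which began at 114889013. H3K4me3 was found in no day 2 list at 16.9% of all pooled PSME3 peaks, and in all 3 cycling lists but no day 2 list at 3.05%.

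The genes differed widely in the width of H3K4me3. In the pooled cycling list, the widest single peak measured 7.44 kb at Vgll4, 6.94 kb at Vgll3, 6.22 kb at Wwtr1, 6.07 kb at Tead4, 4.96 kb at Tead3, 4.41 kb at Tead1, 3.64 kb at Yap1, 2.26 kb at Vgll2 and 1.90 kb at Tead2. The median of that list was 1588 bp. The 4.96 kb Tead3 peak ran from -4.3 to 0.7 kb of the first base of the span. It thus lay mostly outside the gene, at boundaries of Fance and Rpl10a. The peak at the annotated Tead3 starts, at the other end, measured 4533 bp. By fold enrichment, the widest peak of Vgll4 exceeded 99.2% of the pooled H3K4me3 peaks, and those of Vgll3, Tead1, Yap1 and Tead4 exceeded 94.4% to 96.5%. The Vgll2 peak, with a fold enrichment of 6.18, exceeded 54.6%, and the Tead2 peak, at 14.27, exceeded 76.8%. Vgll2 and Tead2 thus had the narrowest marks, and that of Vgll2 was also the weakest.

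Covered width, the number of bases under any H3K4me3 peak within 1 kb of the gene span, again put Vgll4 first and Yap1, Vgll2 and Tead2 last. This order is that of means over replicates, whereas the widest peaks above are from the pooled list. The spans run from 6.0 kb at Vgll2 to 227.4 kb at Tead1, so a longer gene has more room for peaks. In the cycling replicates the covered width was 14.7 ± 3.26 kb (SD, n = 3 here and below) at Vgll4, 11.9 ± 1.69 kb at Wwtr1, 8.78 ± 2.61 kb at Tead3, 7.90 ± 1.30 kb at Tead1, 7.64 ± 2.21 kb at Tead4 and 6.68 ± 0.18 kb at Vgll3. It was 3.42 ± 0.12 kb at Yap1, 2.13 ± 0.39 kb at Vgll2 and 1.80 ± 0.24 kb at Tead2. Neighbours in this order overlapped in their ranges, except that all 3 replicates of Vgll3 exceeded all of Yap1, and all of Yap1 exceeded all of Vgll2. In each cycling list the covered width of Vgll4 ranked above at least 99.6% of protein-coding genes and that of Wwtr1 above at least 99.2%, while Tead2 ranked near the middle, between 52.7% and 54.0%.

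Yap1, Tead2 and Vgll2 each carried a single H3K4me3 peak in every list, at the annotated start. The other 6 genes carried further peaks inside the gene. Of the 38 pooled H3K4me3 peaks at the 9 genes, 10 lay at or within 1 kb of the start or end of the gene and 28 were internal. The boundary peaks had a median fold enrichment of 17.74 and each was overlapped by a peak in all 7 lists, although the fresh native peak over 1 of the Tead3 regions lay beyond 1 kb of the span. The internal peaks had a median fold enrichment of 2.96, and 14 were found in all 3 cycling lists. Of the internal peaks 5 were found in all 4 day 2 lists and 11 in none of them. The 28 come from the pooled cycling list, so peaks present only at day 2 do not enter. The share over all internal peaks of that list was not computed. Of the 11 found in no day 2 list, 8 were listed in cycling replicate 2 alone, the list with the most peaks, and 1, at Wwtr1, was in all 3 cycling lists.

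Vgll4 was unusual in that its strongest H3K4me3 peak was internal. That peak (chr6:114915400-114922838, 7439 bp) lay 54.8 to 62.2 kb from the first base of the span, was found in all 7 lists and had no PSME3 peak. Its fold enrichment was 23.52, against 11.52 for the peak at the annotated start. The RefSeq promoter table held 1 Vgll4 start, at the far end of the span. The H3K4me3 peak that held the internal PSME3 site was wide, 6353 bp, but weak, with a fold enrichment of 2.87.

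Between the stages, 3 of the 9 genes had a smaller covered H3K4me3 width in every day 2 library than in every cycling library: Tead1, Wwtr1 and Vgll4. No gene had a larger one throughout. Over the 14376 protein-coding genes tested, 36.3% were lower at day 2 without overlap and 1.02% were higher, so 3 of 9 is close to the share of all genes. The median log2 difference, day 2 minus cycling, of covered bp + 100 was -0.37 over the 9 genes and -0.35 over all genes tested. With 3 against 4 libraries the smallest two-sided exact permutation p is 0.0571, and after Benjamini-Hochberg adjustment over all genes no value was below 0.153. No gene could therefore pass 0.05, and separation of the libraries is given as a description.

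Tead1 had the largest difference. Its covered width was 7.66, 9.29 and 6.73 kb in cycling replicates 1, 2 and 3. At day 2 it was 3.29 kb in fresh native, 3.56 kb in fresh crosslinked, 5.10 kb in frozen native and 4.65 kb in frozen crosslinked cells. The day 2 libraries all lay below the cycling ones, with a log2 difference of -0.92 (exact permutation p = 0.0571, adjusted 0.153).

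At Wwtr1, which encodes TAZ, the cycling values were 10.9, 13.8 and 10.9 kb. The day 2 values were 5.05 kb in fresh native, 7.69 kb in fresh crosslinked, 8.35 kb in frozen native and 7.64 kb in frozen crosslinked cells. The stages did not overlap, and the log2 difference was -0.73 (exact permutation p = 0.0571, adjusted 0.153). At Vgll4 the cycling values were 12.4, 18.5 and 13.4 kb. The day 2 values were 7.08 kb in fresh native, 8.36 kb in fresh crosslinked, 9.04 kb in frozen native and 11.5 kb in frozen crosslinked cells. Here too the stages did not overlap, with a log2 difference of -0.71 (exact permutation p = 0.0571, adjusted 0.153). Without cycling replicate 2, the list with the most peaks, the log2 differences were -0.8 at Tead1, -0.62 at Wwtr1 and -0.53 at Vgll4. Leaving out a library cannot undo a separation, so it is no check on the separation itself. The frozen native library, handled like the cycling cells, lay below all 3 cycling values at 4 of the 9 genes and above all 3 at Vgll3. At Tead1, Wwtr1 and Vgll4 this follows from their separation, and the other gene was Tead3. Over all genes tested, that library was below all cycling values for 59.4% and above them for 6.38%.

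The other 6 genes overlapped between the stages. Their values, and those of single peaks, are given for cycling replicates 1 to 3 and, at day 2, for the fresh native, the fresh crosslinked, the frozen native and the frozen crosslinked library in turn. Tead3 was the most variable, with 7.20, 11.8 and 7.35 kb in cycling cells and 2.89, 7.28, 5.64 and 7.86 kb at day 2. Its log2 difference was -0.62 (exact permutation p = 0.2857, adjusted 0.43), and the low fresh native value stood far below the others. Without the fresh native library the difference was -0.31, and without cycling replicate 2 it was -0.39. In the fresh native list the peak near the first base of the Tead3 span, 2607 bp wide, lay beyond 1 kb of the span and was not counted. Tead4 measured 6.64, 10.2 and 6.11 kb in cycling cells and 5.0 to 6.11 kb at day 2, a log2 difference of -0.37 (exact permutation p = 0.1143, adjusted 0.237), or -0.15 without cycling replicate 2. The highest day 2 value of Tead4, in frozen native cells, was just above its lowest cycling value. Of the 2 boundary peaks of Tead3, that at the first base of its span also lies at boundaries of Fance and Rpl10a, and the other also at a boundary of Tulp1.

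Yap1 stayed at a near constant width in its 7 libraries, at 3.44, 3.30 and 3.54 kb in cycling cells and 2.89, 3.41, 3.39 and 3.71 kb at day 2. Its log2 difference was -0.04 (exact permutation p = 0.8, adjusted 0.901). Tead2 measured 1.58 to 2.05 kb and 1.35 to 1.75 kb, with a log2 difference of -0.17 (exact permutation p = 0.3429, adjusted 0.488), or -0.07 without cycling replicate 2 and -0.09 without fresh native. Vgll2 measured 1.72 to 2.50 kb and 2.04 to 2.64 kb, with a log2 difference of 0.11 (exact permutation p = 0.5143, adjusted 0.656). For these 3 single-peak genes, the libraries of the stages overlapped.

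Vgll3 measured 6.48, 6.84 and 6.71 kb in cycling cells and 5.27, 6.90, 7.74 and 7.49 kb at day 2, a log2 difference of 0.02 (exact permutation p = 0.8571, adjusted 0.901). The fresh native library alone lay below the cycling range. Without that library, every day 2 value of Vgll3 was above every cycling value. The share of all genes higher without that library was not computed. The Vgll3 peaks at the start of the gene covered 5266, 5143 and 5688 bp in cycling cells and 5267, 6603, 6919 and 6876 bp at day 2.

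**Figure D3:**
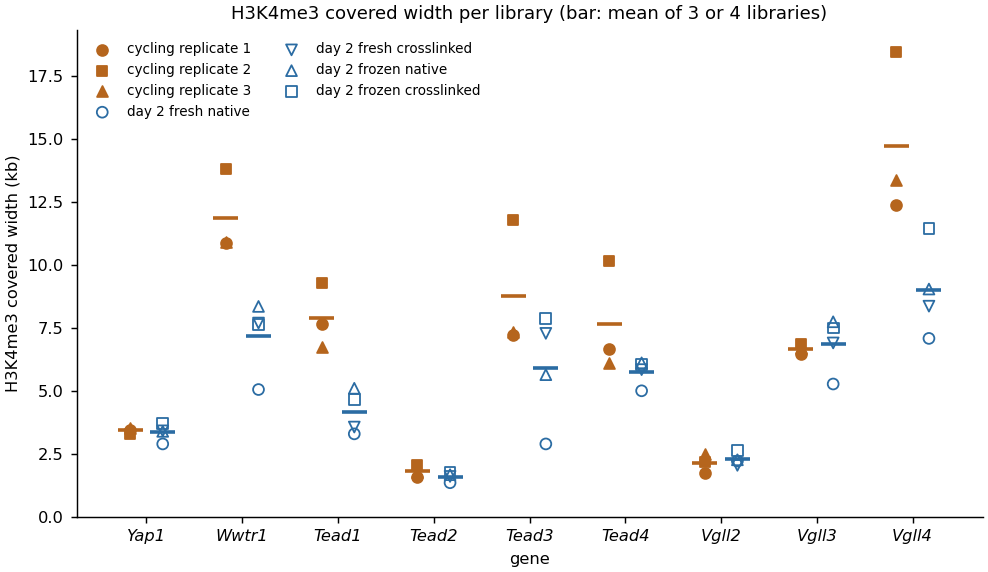
H3K4me3 covered width in kb of the 9 genes in each of the 3 cycling libraries (brown) and the 4 day 2 libraries (blue), with the mean of each stage as a bar. All day 2 values of Wwtr1, Tead1 and Vgll4 lie below their cycling values, and those of the other 6 genes overlap.

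The fresh native H3K4me3 list covered 23.6 Mb in all and the other day 2 lists 31.7 to 35.1 Mb, against 36.1, 54.8 and 39.6 Mb in the cycling replicates. The part of this in the width of single genes was not tested. Covered width was also given as a percentile rank among protein-coding genes within each list. On this scale, 9.22% of all genes were lower without overlap at day 2 and 14.2% were higher. Of the 9 genes, Tead1 was lower on this scale, with a difference of -4.63 points, and Yap1, Tead2 and Vgll3 were higher without overlap. Yap1 ranked between 74.6% and 86.3% in cycling cells and between 88.2% and 90.2% at day 2. The rank does not remove differences in list totals. In cycling replicate 2, which covered the most, Yap1 ranked at 74.6% with 3295 bp. In fresh native, which covered the least, it ranked at 90.2% with 2887 bp. The part of list size in the higher ranks of Yap1, Tead2 and Vgll3 was not tested. Vgll3 ranked between 94.6% and 97.8% in cycling cells and between 98.4% and 99.0% at day 2. Wwtr1 and Vgll4 ranked at least at 98.3% and 99.1% in every library. These ranks are at the top of the scale, and nothing is read from their overlap between the stages. The covered width of these genes at day 2 averaged 60.6% and 61.0% of that in cycling cells.

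**Figure D4:**
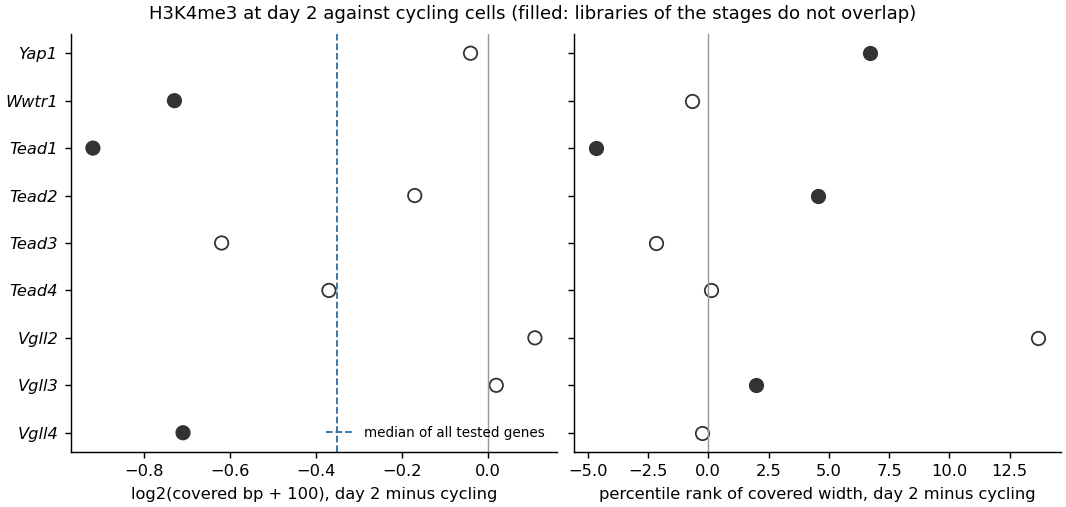
Difference in H3K4me3 covered width between day 2 and cycling cells for each of the 9 genes, on the log2 scale of covered bp + 100 (left, with the median of all 14376 genes tested at -0.35 dashed) and in percentile rank within each list (right). Filled points mark genes whose stages do not overlap: Wwtr1, Tead1 and Vgll4 on the left, and Yap1, Tead1, Tead2 and Vgll3 on the right.

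Summed over the 9 genes, most of the difference in width between the stages lay in the internal peaks. Internal H3K4me3 at the 9 genes added up to 23.7, 39.7 and 24.3 kb in cycling replicates 1, 2 and 3. At day 2 it was 6.4 kb in fresh native, 13.8 kb in fresh crosslinked, 14.3 kb in frozen native and 16.9 kb in frozen crosslinked cells, with no overlap between the stages. The mean at day 2 was 44.0% of that in cycling cells, where the same ratio over all protein-coding genes was 60.2%. The width of boundary peaks was 34.2, 38.1 and 34.6 kb in cycling cells and 28.6, 32.9, 35 and 36.4 kb at day 2, which overlap, and its mean was 93.2% of that in cycling cells against 81.1% over all genes. These sums hold the same libraries as the single genes and were not tested separately.

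Tead1 and Wwtr1 differed between the stages in their internal peaks. At Tead1 the peak at the start measured 4281, 4622 and 4102 bp in cycling cells and 3291, 3240, 4136 and 3871 bp at day 2. Internal Tead1 peaks added up to 3474, 4870 and 2774 bp in cycling cells and to 0, 321, 964 and 780 bp at day 2. The Tead1 peaks 40.8 to 41.9 kb and 144.1 to 145.4 kb from the first base of the span were in all 3 cycling lists and in 1 day 2 list each, frozen native. At Wwtr1 the peak at the start measured 5497, 6704 and 5507 bp in cycling cells and 4876, 6017, 5935 and 6226 bp at day 2. A Wwtr1 peak 45.6 to 47.0 kb from the first base of the span was in all 3 cycling lists and in no day 2 list. The internal Wwtr1 peak at 54.2 to 57.4 kb was in all 7 lists, at 2875, 2749 and 3047 bp in cycling cells and 272, 1711, 2464 and 1218 bp at day 2. For both genes the width at the start overlapped between the stages and the internal width did not. The 6 genes with an internal peak in any list also had one in all 3 cycling lists. Internal width was lower at day 2 without overlap at 5, Wwtr1, Tead1, Tead4, Vgll3 and Vgll4, and higher at none. Of the 7792 protein-coding genes with an internal peak in any list, 15.8% were lower and 0.655% higher. Of the 2713 with one in all 3 cycling lists, 45.4% were lower and 0.442% higher. The latter set is chosen on the cycling lists alone, which favours a lower width at day 2, so its shares are no neutral background. These 6 genes had a median span of 91.5 kb, the 2713 genes one of 64.0 kb and the 7792 genes one of 34.9 kb. Tead3 was the reverse. Its boundary width was 5127, 6115 and 4577 bp in cycling cells and 2726, 3490, 3735 and 3975 bp at day 2, without overlap, and its internal width was 2077, 5672 and 2769 bp and 163, 3793, 1902 and 3888 bp, which overlap.

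At Vgll4 the strongest internal peak overlapped in width between the stages, at 5968, 5854 and 5766 bp in cycling cells and 4883, 5180, 5717 and 5862 bp at day 2. The weaker stretch that holds the PSME3 site, 28.0 to 34.3 kb from the first base of the span, covered 2069, 4255 and 3373 bp in cycling cells. At day 2 it covered 1354 bp in frozen crosslinked cells and was absent from the other 3 lists.

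**Figure D5:**
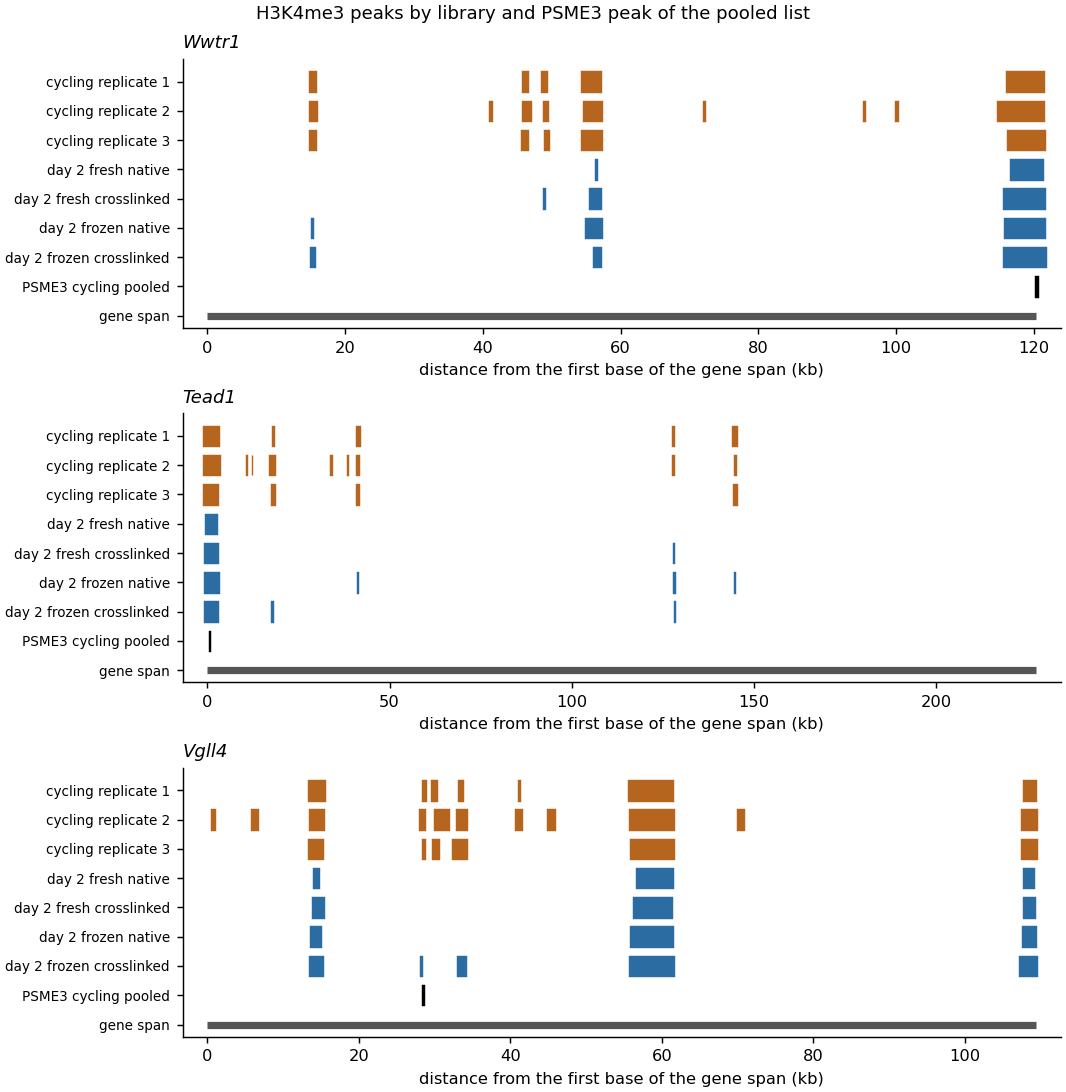
H3K4me3 peaks at Wwtr1, Tead1 and Vgll4 in each cycling (brown) and day 2 (blue) library, with the pooled cycling PSME3 peak (black) and the gene span (grey), along the distance in kb from the first base of the span. The widest peak of each gene is present in all 7 libraries, and the peak of Wwtr1 at 45.6 to 47.0 kb is in all 3 cycling libraries and no day 2 library. Most other internal peaks absent at day 2 are in cycling replicate 2 alone.

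The upstream regulators and the targets of YAP were examined in the same way. Of 22 other Hippo pathway genes, among them the kinases and adaptors that restrain YAP and TAZ, 21 had H3K4me3 in all 7 lists, and Vgll1 had it in none. A pooled PSME3 peak was listed at 10 of the 22, against 21.9% of all genes and 39.5% of genes with H3K4me3 in all 7 lists. None had PSME3 at day 2, where 1.00% of all genes had it. The covered H3K4me3 width was lower at day 2 without overlap at 7 of them and higher at none, with a median log2 difference of -0.32. Stk3, which encodes the kinase MST2, had a PSME3 peak in all 3 replicates (pooled fold enrichment 2.57), more than any of the 9 genes. Wwc2, which encodes a relative of the scaffold KIBRA, had one in replicates 2 and 3 (pooled fold enrichment 3.33), and its covered width was lower at day 2, 5.69 ± 0.35 kb (SD, n = 3) against a mean of 4.24 kb, without overlap. Mob1a, a coactivator of the LATS kinases, Taok1, a kinase upstream of MST, and Amotl2, a cytoplasmic binder of YAP, each had PSME3 in 1 replicate, with pooled fold enrichments of 3.21, 3.10 and 3.02.

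All 22 genes of a list of known YAP targets had H3K4me3 in all 7 lists. A pooled PSME3 peak was listed at 8 of them, which is near the 39.5% of all genes with H3K4me3 in all 7 lists, and none had PSME3 at day 2, where 1.00% of all genes had it. Covered H3K4me3 width was lower at day 2 without overlap at 9 and higher at none, with a median log2 difference of -0.33. Ccn1, a matricellular protein gene and a standard readout of YAP activity, had a PSME3 peak with a fold enrichment of 2.88, and its covered width was 4.99 ± 0.04 kb (SD, n = 3) in cycling cells against a mean of 3.82 kb at day 2, without overlap. Myof, which encodes a membrane repair protein of myoblasts, had 2 pooled PSME3 peaks, the higher at 3.28, and covered widths of 9.63 ± 3.47 kb (SD, n = 3) and 4.63 kb that overlapped between the stages. Tgfb2, a growth factor gene, and Rbms3, an RNA-binding protein gene, had fold enrichments of 2.97 and 2.90, and their covered widths overlapped between the stages. Amotl2, Lats2 and Ptpn14 belong to both lists. The counts of 7 and 9 of 22 lower at day 2 are to be read against 36.3% of all genes.

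Over the 7 H3K4me3 lists, the gene whose covered width was most like that of Yap1 was Rab6a, with a root mean square difference of 0.058 on the log2 scale over 11638 genes compared. For Tead4 it was Trp53bp1 (0.074), for Vgll3 Epc1 (0.07), for Tead2 Cpne3 (0.055) and for Vgll4 Hnrnpf (0.113). Wwtr1 was nearest to Cflar (0.127), Tead3 to Ptpa (0.16), Vgll2 to Zc3h13 (0.122) and Tead1 to Mgat1 (0.186). For comparison, the distance of each gene with H3K4me3 in all 7 lists to its own nearest gene had a median of 0.072, with 0.035 and 0.204 as the 5th and 95th percentiles, so these distances are within the usual range.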

How the data were processed

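CUT&RUN peak lists of 14 libraries and 2 pooled cycling lists were used, and the 7 IgG libraries were not analysed here. Per the labels and the submitters' processing notes, the authors used Trim Galore for trimming and Bowtie2 for alignment to mm10, and called peaks with MACS2; versions and options are not given in the sources used here. Each deposited row holds a peak's position, an integer score made from its q-value, the fold enrichment (a ratio to the MACS2 background), and its p-value and q-value as −log10, and all deposited peaks have a q-value under 0.1. A deeper library passes this threshold at weaker sites and over wider stretches.

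Gene spans came from a RefSeq table of GRCm38.p6, with 49997 genes. Covered width was compared on log2(bp + 100), with an exact permutation test over all protein-coding genes that have a peak in at least 1 H3K4me3 list and Benjamini-Hochberg adjustment (Python 3.11.15, numpy 2.4.6, pandas 2.3.3, scipy 1.17.1, matplotlib 3.10.9). The functions were tested on simulated data. The 4 day 2 preparations, 1 library each, stood together for day 2, so their spread includes handling, and whether the cycling replicates are separate cultures rests on the study's description of them as biological replicates.

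All 9 genes are described. Of each pathway list, up to 5 genes with a pooled PSME3 peak were named, by number of replicate lists and then fold enrichment, together with the gene nearest in H3K4me3 pattern to each of the 9. Members and lists were chosen with earlier results of these data known. PSME3 and H3K4me3 libraries share replicate numbers. The deviations of their log2 shares of peaks per autosome had a Pearson r of 0.538, 0.552 and 0.264 for replicates 1, 2 and 3, so the numbers were taken to pair them, although PSME3 replicate 1 had an r of 0.521 with H3K4me3 replicate 3. The reverse pair of these libraries reached 0.254, and replicates 1 and 3 are therefore not told apart by this measure. Alternatives were stricter q-values, other distances, other width measures, equal list lengths, the replicate block and leaving out each library.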

Additional observations from a re-analysis of the deposited data

How the results depend on the processing

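The count of 7 genes with a pooled PSME3 peak depended on the threshold and on replicate support. It was 4 at a q-value of at most 0.01 (Wwtr1, Tead4, Vgll3 and Vgll4), with all 4 inside H3K4me3, a threshold that 47.7% of all pooled PSME3 peaks also missed, and 1 (Vgll3) when a peak had to recur in at least 2 replicates. Requiring overlap with the replicates left after each was omitted gave 2 to 5 genes, with 4 without replicate 1 and 2 without replicate 3; with all 3 replicates, Wwtr1 and Tead2 already lack one. At 3 kb from the span the count was 8, with Tead3 added, and the share of all genes at that distance was not computed. A pooled PSME3 peak overlapped the H3K4me3 peak at the first base of the Tead3 span, which also lies at boundaries of Fance and Rpl10a. None overlapped the H3K4me3 peak at the annotated Tead3 starts, so the added peak is not assigned to Tead3. The day 2 count at 3 kb, an alternative chosen after seeing the data, was 0.

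The count of 3 genes lower at day 2 was 1 on percentile rank (Tead1), 1 by the widest peak (Tead3) and 1 for boundary peaks alone (Tead3), where 36% of all genes were lower and 1.21% higher. It was 3 to 4 with each library left out, where it could not fall below 3, because leaving out a library cannot undo a separation. Genes higher without overlap numbered 3 on percentile rank, where 9.22% of all genes were lower and 14.2% higher, and 1, Vgll3, without the fresh native library. No share of all genes was computed for the widest peak or with a library left out, so those counts have no background. Some differences changed sign: Yap1 to 6.72 points of percentile rank and 0.01 with no distance; Tead2 to 4.56 points and 0.00 with no distance; Tead4 to 0.11 points. With each library left out, Yap1 ran from -0.09 to 0.03 (without fresh native), Vgll2 from -0.03 (without cycling replicate 1) to 0.23, and Vgll3 from -0.04 (without frozen native) to 0.14, with -0.03 without frozen crosslinked and 0.00 without cycling replicate 1. The causes were not tested.

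The difference of 6.67 genes between H3K4me3 and PSME3 had p = 0.25 with the replicate block, by an exact sign-flip test that can give no smaller p, and was 6.0 to 8.0 with each replicate left out. The block changed no other call, since only this comparison has paired libraries. Depth is unknown, so a peak missing from a short list may be absent or may have gone undetected, which was not tested.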

Other observations

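The promoters of these genes were rich in CpG. Over the 10 promoter entries of 7 genes, the 250 bases before the start had a median GC content of 67.2% and a median of 19 CpG dinucleotides, against 52.4% and 6 over all 32851 promoters. Yap1 had the most CpG dinucleotides, 44, at a GC content of 76.4%, and Tead2 the fewest, 7, at 57.2%. One of the Tead3 entries had a higher GC content, 76.8%. The E-box CANNTG, the motif of MYOD and other myogenic factors, was found in the windows of Yap1, Vgll2 and Vgll4, at 163 and 246 bases before the start for Yap1 and Vgll2, while 66.2% of all promoters held one. None was found in the windows of Wwtr1, Tead2, Tead3 and Vgll3. H3K4me3 covered all 250 bases in all 7 lists at Yap1, Wwtr1, Tead3, Vgll3 and Vgll4, and in 5 lists at Tead2 and Vgll2. Of all promoters, 26.7% were covered in this way in all 7 lists and 32.7% in at least 5.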
